A study of Mus musculus with 8 samples.

Results

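Accessible chromatin was examined at 10 mouse genes of the Wnt pathway that have been described in lens epithelium: the receptors Lrp5, Lrp6, Fzd3 and Fzd6, the secreted Wnt-binding or Wnt-related proteins Sfrp1, Sfrp2 and Dkk3, the scaffold and feedback target Axin2, and the nuclear factors Lef1 and Tcf7l1. The genes were chosen by name, out of 21000 protein-coding genes with a curated RefSeq transcript, and the search covered each RefSeq gene body on GRCm38 with 50 kb on each side. These 10 windows, 1724 kb in all, held 371 of the 185271 accessible elements that were obtained by merging the peaks of the whole series. Open chromatin was mapped by ATAC-seq, in which a transposase inserts sequencing adaptors into accessible DNA, in CD1 mouse embryos of E14.5 and newborn mice of P0.5. At each stage the lens was micro-dissected into epithelium, the proliferating cell sheet of the anterior lens, and fibers, the elongated cells that differentiate from it, which gives 4 groups, epithelium and fibers of either stage. Each of the 8 libraries, 2 in each group, was made from lenses of several animals, no treatment or engineered allele is named in the labels, and the dissection sorts cells by position and not by a marker. The authors pooled the 2 libraries of a group before they called peaks, so that every value below belongs to a pool, has no spread between replicates and was compared without a test.

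In canonical Wnt signalling, a secreted Wnt ligand joins a Frizzled receptor and the co-receptor Lrp5 or Lrp6 at the cell surface, the complex that degrades beta-catenin is disabled, and beta-catenin enters the nucleus and binds factors of the TCF/LEF family at their target genes. Secreted Frizzled-related proteins bind Wnt ligands outside the cell, and Axin2 is both a scaffold of the degradation complex and a widely used target gene of the pathway. In the lens, Lrp6 and the epithelial expression of several Frizzled and Sfrp genes have been linked to formation and maintenance of the epithelium, while non-canonical signalling through Fzd3 and Fzd6, which are known from planar cell polarity, has been linked to the alignment of fibers.

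The 4 peak lists held 100003 peaks (E14.5 epithelium), 123743 peaks (E14.5 fibers), 58592 peaks (P0.5 epithelium) and 62995 peaks (P0.5 fibers), of which 221, 274, 121 and 113 peaks touched the 10 windows. In every list the fold enrichment of a peak was a whole number of fragments over its summit plus 1, divided by a constant of that list, so that the fragments behind each peak could be read back. The weakest peaks called had 7, 8, 7 and 6 fragments over the summit, in the order of lists just given, and the median peak had 14, 15, 13 and 8 fragments. The P0.5 fiber list was therefore the shallowest, and 48.9% of its peaks had a q value under 0.001, against 80.5% to 87.9% in the other lists. Because depth and number of peaks differ between the lists, the place of a peak is given as its rank by fold enrichment in percent of its own list, with small values for strong peaks. Each fragment count is given with an exact Poisson 95% interval and each share with a Wilson 95% interval where an interval is printed, and both cover counting error only.

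Of the 371 elements, 7 (1.89%, against 2.28% of all elements) were called in both epithelium lists and in no fiber list. The count was 12 of 228 when the lists were limited to equal numbers of peaks. The sequences at the summits of 4 of these 7, all outside every exon, are shown here, since such sites are the epithelium-restricted accessible elements of these windows in terms of peak calls. Each is the forward strand of GRCm38 from 100 bp before to 100 bp after the summit, in lower case, in order of their mean rank in the epithelium lists. The capitals in the first mark the only match to the Tead core motif, GGAATG on either strand, in this set, and none of the 4 holds a match to the TCF/LEF motif CTTTGAT on either strand.
Tcf7l1, chr6:72628780-72628980: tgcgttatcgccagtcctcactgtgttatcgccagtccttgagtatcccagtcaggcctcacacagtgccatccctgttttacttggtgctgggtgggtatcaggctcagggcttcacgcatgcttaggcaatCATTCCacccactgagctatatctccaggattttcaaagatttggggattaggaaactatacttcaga
Lef1, chr3:131121425-131121625: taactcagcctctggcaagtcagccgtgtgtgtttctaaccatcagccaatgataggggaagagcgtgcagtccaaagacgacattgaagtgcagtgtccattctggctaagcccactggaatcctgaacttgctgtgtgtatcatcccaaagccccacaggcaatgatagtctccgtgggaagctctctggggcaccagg
Tcf7l1, chr6:72813652-72813852: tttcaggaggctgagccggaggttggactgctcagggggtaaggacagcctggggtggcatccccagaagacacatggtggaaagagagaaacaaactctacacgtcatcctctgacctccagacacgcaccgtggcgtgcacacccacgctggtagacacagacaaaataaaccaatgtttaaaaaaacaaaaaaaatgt
Fzd6, chr15:38979419-38979619: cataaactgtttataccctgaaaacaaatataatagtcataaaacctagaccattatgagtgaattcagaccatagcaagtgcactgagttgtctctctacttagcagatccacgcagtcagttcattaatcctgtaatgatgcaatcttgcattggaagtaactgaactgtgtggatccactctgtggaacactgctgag

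The site of the Lef1 line is in an intron, 8.73 kb downstream of the nearest curated start site, and had 41 fragments in E14.5 epithelium (rank 15.2%) and 15 fragments in P0.5 epithelium (39.5%). It was the strongest of the 7 by the E14.5 epithelium list, and no peak was called there in the fiber lists, where the weakest peaks called had 8 and 6 fragments. The first Tcf7l1 site lies within 2 kb of a start site of Gm15401, near the 3′ end of Tcf7l1, and had 33 fragments (18.9%) at E14.5 and 18 fragments (31.6%) at P0.5. The Tcf7l1 site 24.7 kb upstream of the start site had 14 fragments at E14.5 and 11 in the later list. The Fzd6 site, 26.8 kb upstream of its gene, had 8 fragments (rank 87.9%) in E14.5 epithelium, close to the weakest call of that list, and 12 fragments (52.3%) in P0.5 epithelium. Of those not shown, 2 touch an exon, 1 of them upstream of Fzd6 in the body of another gene (12 and 18 fragments). The other is at a start site of Gm15401 in the Tcf7l1 window (14 and 12 fragments). Its peaks do not overlap and were joined by merging at 10 bp.

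TCF/LEF factors recognise CTTTGAT, and the motif was found on either strand within 100 bp of the summit in 8 of the 371 elements, 2.16% (interval 1.1% to 4.2%), against 2.38% of all 185271 elements. The share in these windows was close to the background share. The 4 highest-ranked of the 6 matches that lie outside every exon are shown next, because 1 of them is upstream of Axin2 and the rest lie in introns of Lrp6 and Dkk3. Capitals mark each match, which reads ATCAAAG where it is on the reverse strand.
Axin2, chr11:108897716-108897916: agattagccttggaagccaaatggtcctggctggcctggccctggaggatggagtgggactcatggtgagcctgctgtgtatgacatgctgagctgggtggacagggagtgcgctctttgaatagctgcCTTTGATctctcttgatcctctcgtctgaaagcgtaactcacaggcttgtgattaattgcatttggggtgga
Lrp6, chr6:134559546-134559746: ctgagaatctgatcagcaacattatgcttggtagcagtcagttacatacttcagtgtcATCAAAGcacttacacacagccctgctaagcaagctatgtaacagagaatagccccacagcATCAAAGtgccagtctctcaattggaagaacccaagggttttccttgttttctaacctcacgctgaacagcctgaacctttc
Dkk3, chr7:112146125-112146325: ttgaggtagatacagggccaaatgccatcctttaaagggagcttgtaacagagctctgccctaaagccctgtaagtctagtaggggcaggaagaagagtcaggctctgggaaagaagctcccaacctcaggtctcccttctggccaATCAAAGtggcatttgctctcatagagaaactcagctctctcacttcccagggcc
Lrp6, chr6:134521397-134521597: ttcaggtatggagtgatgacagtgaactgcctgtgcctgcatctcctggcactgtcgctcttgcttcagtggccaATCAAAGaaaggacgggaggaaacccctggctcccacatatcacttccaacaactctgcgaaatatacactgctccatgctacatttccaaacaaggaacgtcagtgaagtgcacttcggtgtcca

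The site upstream of Axin2, 22.5 kb from the start site and inside the body of a neighbouring gene, was called in all 4 lists, with 52 fragments in epithelium against 23 in fibers at E14.5, and 17 against 7 at P0.5. Its ranks were 12.1%, 31.0%, 33.9% and 69.2%, so that it stood higher in the epithelium list than in the fiber list of the same stage. The Lrp6 site 7.27 kb into the gene, with 2 matches, was called in both E14.5 lists, with 20 fragments in epithelium and 28 in fibers, and in neither P0.5 list. The Dkk3 site, in an intron 12.5 kb from the start site, was called in both fiber lists and in no epithelium list, with 16 fragments in the E14.5 list and 8 in the P0.5 list. The remaining Lrp6 site, 45.4 kb into the gene, had 9 and 13 fragments in the E14.5 epithelium and fiber lists. Of the 4 matches not shown, 1 was in the Axin2 promoter element, called in all 4 lists, 1 in an intron of Dkk3 in E14.5 fibers alone, 1 upstream of Lef1 in E14.5 epithelium alone and 1 in an intron of Lef1 in E14.5 fibers alone. A match of letters describes these windows and does not show that a factor is bound.

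All 10 genes had a peak within 2 kb of a curated start site in all 4 lists. Over all 21000 protein-coding genes the share with such a promoter peak was 70.3% in epithelium and 71.2% in fibers of E14.5, and 67.0% and 64.6% in those of P0.5. The median rank of the 10 best promoter peaks was 7.60%, 6.82%, 11.1% and 12.2% in these lists, and the medians over all genes with a promoter peak were 7.68%, 6.10%, 12.8% and 10.3%. The promoters of the 10 genes were thus open in every list, at ranks around the genome-wide medians. By fragment count, Lrp5 and Lef1 came last in every list. Fzd3, Sfrp1 and Tcf7l1 were among the first 5 in every list, Lrp6 in all but P0.5 epithelium and Axin2 in all but E14.5 fibers.

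**Figure D1:**
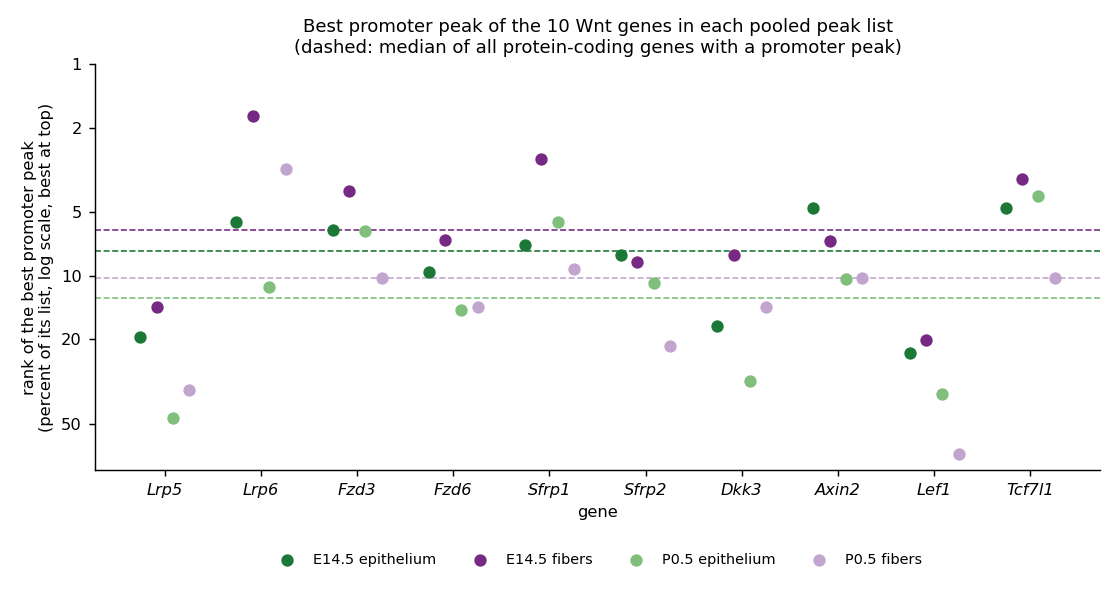
Rank of the best promoter peak of each gene (horizontal axis) in percent of its list (vertical axis, log scale, strongest at the top), 1 point for each of the 4 pooled lists, with dashed lines at the medians of all protein-coding genes with a promoter peak. Lef1 runs from 20.1% in E14.5 fibers to 69.2% in P0.5 fibers, and Lrp6 lies between 1.77% and 11.3%.

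Within the E14.5 epithelium list, the order of the promoters by fragments over the summit was Axin2 and Tcf7l1 (116 each), Lrp6 (105), Fzd3 (98), Sfrp1 (86), Sfrp2 (78), Fzd6 (66), Dkk3 (36), Lrp5 (32) and Lef1 (27). Between neighbours in this order the counting intervals overlapped except between Fzd6 (51.0 to 84.0) and Dkk3 (25.2 to 49.8). In the E14.5 fiber list Lrp6 (264) came first, followed by Sfrp1 (220), Tcf7l1 (196), Fzd3 (181), Fzd6 (114), Axin2 (112), Dkk3 (95), Sfrp2 (87), Lrp5 (50) and Lef1 (35). Here the intervals of neighbours did not overlap between Fzd3 and Fzd6 and between Sfrp2 and Lrp5. The order at P0.5 could not be resolved between any neighbours, since counts ran from 62 (Tcf7l1) to 13 (Lrp5) in epithelium and from 29 (Lrp6) to 7 (Lef1) in fibers.

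The tissues were compared at each stage by the difference of the ranks, called when it reached 10 percentage points. At E14.5 no gene of the 10 reached it, whereas over 14426 genes with a promoter peak in both lists 2.72% stood at least 10 points better in epithelium and 9.07% at least 10 points better in fibers. The closest was Dkk3, 9.33 points better in fibers, and 12.7 points better when the lists were limited to equal numbers of peaks. Of all genes 6.75% then stood at least 10 points better in epithelium and 7.4% in fibers, while at q values under 0.001, where again no gene of the 10 reached 10 points, the shares were 3.78% and 8.07%. At P0.5, Sfrp2 (10.6 points) and Lef1 (32.8 points) stood better in epithelium, against 9.61% of 12836 genes, and Lrp5 (12.4 points) and Dkk3 (17.6 points) stood better in fibers, against 15.3%. With equal numbers of peaks the Lrp5 difference, fibers minus epithelium, was -9.79 points and no longer reached 10, which left 1 gene better in fibers and 2 in epithelium, against 13.8% and 10.8% of all genes. The Sfrp2 and Lef1 differences compare different peaks in the tissues, as described with these genes. With 2 of 10 genes in each direction these counts are too small to be set apart from the background shares. Among the peaks with a q value under 0.001, the Lrp5 difference turned to 16.7 points in favour of epithelium, that of Dkk3 fell to 7.76 points in favour of fibers and that of Sfrp2 was 31.3 points in favour of epithelium. Under the same threshold Tcf7l1 (16.2 points), Fzd3 (14 points), Sfrp1 (12.6 points) and Fzd6 (11.9 points) also reached 10 points in favour of epithelium, no gene reached it in favour of fibers, and the Lef1 promoter had no peak left in P0.5 fibers. Over the 11945 genes with a promoter peak in both P0.5 lists at this threshold, 31.6% stood at least 10 points better in epithelium and 5.92% in fibers. That threshold removes more of the P0.5 fiber list than of the others, which raises the ranks in percent of that list.

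**Figure D2:**
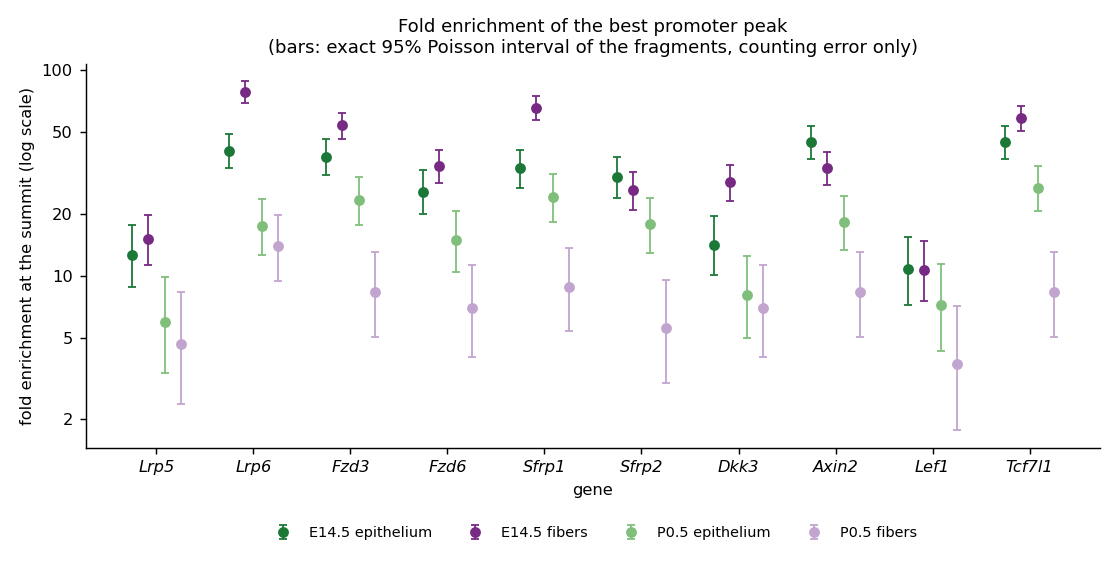
Fold enrichment at the summit of the best promoter peak (vertical axis, log scale) of each gene (horizontal axis) in the 4 pooled lists, with bars for the exact 95% Poisson interval of the fragments, which covers counting error only. The values run from 3.71 for Lef1 in P0.5 fibers to 78.6 for Lrp6 in E14.5 fibers, and the P0.5 fiber points carry the widest bars relative to their values.

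Lrp5 (chr19:3584825-3686585, minus strand), a Wnt co-receptor, had a weak promoter peak in every list: 32 fragments over the summit (rank 19.5%) in epithelium against 50 (14.1%) in fibers at E14.5, and 13 (47.1%) against 9 (34.7%) at P0.5. The intervals were 21.9 to 45.2, 37.1 to 65.9, 6.92 to 22.2 and 4.12 to 17.1 fragments. The strongest peaks of its window were at neighbours, the promoters of Ppp6r3 and of 1810055G02Rik with Gm36608. The window held 37 elements, of which 14 were called in P0.5 fibers alone. These 14 had 6 to 12 fragments, 5 were in introns and 3 in coding exons of Lrp5, and their share of the window, 37.8%, compares with 12.6% of all elements. Of 29 elements called in a P0.5 list, 19 were called in fibers and not in epithelium, 65.5% (47.4% to 80.1%), against 39.7% over all elements, and 5 the other way, 17.2%, against 35.2%. Lrp5 was the gene of the 10 with the most P0.5 fiber peaks (25), of which 11 had a q value under 0.001.

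Lrp6 (chr6:134446476-134566913, minus strand), the other co-receptor of Wnt ligands, had the highest promoter count of the 10 in both fiber lists, with an interval that overlapped that of Sfrp1 in each. The count over the summit was 105 fragments (85.9 to 127) against 264 (233 to 298) in epithelium and fibers of E14.5, and 40 (28.6 to 54.5) against 29 (19.4 to 41.7) in those of P0.5. Its ranks were 5.59%, 1.77%, 11.3% and 3.15%, better in fibers than in epithelium at both stages by 3.83 and 8.13 points, both short of the 10 points that counted as a difference. The peak was also wider in E14.5 fibers, 1976 bp, than in the other lists, where it measured 1063 to 1287 bp. Elsewhere in the window, 16 of 36 elements were called in E14.5 fibers alone, 12 of them in introns of Lrp6, with 9 to 28 fragments, or 44.4% (interval 29.5% to 60.4%) against 29.3% of all elements. Of the 32 elements called at E14.5, 17 (53.1%, interval 36.5% to 69.1%) were in the fiber and not the epithelium list, against 40.1% over all elements.

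Fzd3 (chr14:65192441-65262463, minus strand), a Frizzled receptor of the planar polarity branch, had 98 fragments at the promoter in epithelium against 181 in fibers at E14.5, and 54 against 17 at P0.5, with ranks of 6.12%, 4.0%, 6.14% and 10.3%. The summit lay within 0.1 kb of the start site in every list, and the promoter peak was 975 to 1401 bp wide. The strongest site of its window in all lists but P0.5 epithelium was an element between genes, 112 kb downstream of the start site. That element had 193 fragments (1.59%) in epithelium and 354 (0.523%) in fibers of E14.5, and 51 (6.94%) and 30 (2.85%) in those of P0.5, the highest count of any peak in the 10 windows in the E14.5 lists. A further intronic site, 57.7 kb into the gene, had 65, 41 and 26 fragments and was called in all lists but P0.5 fibers, at better ranks in E14.5 epithelium (9.74%) than in E14.5 fibers (17.1%). Another, 16.8 kb into the gene, was called at E14.5 alone with 42 fragments in epithelium (14.8%) and 126 in fibers (6.15%).

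Fzd6 (chr15:39006149-39038192, plus strand), the Frizzled receptor closest to Fzd3 in sequence, had the sparsest window of the 10, with 10 elements. Its promoter had 66 fragments in epithelium against 114 in fibers at E14.5 (ranks 9.60% and 6.77%), and 34 against 14 at P0.5 (14.6% and 14%). The window held 11 and 8 peaks in these tissues at E14.5 and 6 and 2 at P0.5, and the 2 in P0.5 fibers were the promoters of Fzd6 and of the neighbour Cthrc1. No element of the Fzd6 window was called in a fiber list alone: 0 of 10 at E14.5 (0% to 27.8%) against 40.1% over all elements, and 0 of 6 at P0.5 (0% to 39.0%) against 39.7%. In the other direction 2 of 10 elements at E14.5 were in epithelium and not fibers (against 19.7%) and 4 of 6 at P0.5 (66.7%, interval 30.0% to 90.3%, against 35.2%). With so few elements the intervals are wide.

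Sfrp1 (chr8:23411383-23449632, plus strand), which encodes a secreted Frizzled-related protein, carried far more accessible DNA in E14.5 fibers than in any other list. Its window held 34 peaks against 61 in epithelium and fibers of E14.5, and 17 against 11 in those of P0.5, which covered 7.78%, 29.7%, 3.62% and 2.04% of the window. Over the gene body the covered share was 15.1%, 64.3%, 5.89% and 4.93%. The window coverage in E14.5 fibers exceeded that of 99.2% of protein-coding genes in the same list, while in the other lists it exceeded that of 66.3% to 86.6% of genes. Of the peaks of E14.5 fibers 11 of 61 (18.0%) were over 1000 bp, against 11.9% of all peaks of that list. The widest, 3568 bp, was 19.7 kb into the gene at a modest rank of 22.8%. Of the 66 elements of the window, 33 were called in E14.5 fibers alone, against 29.3% of all elements, with 9 to 28 fragments, 13 of them in introns and 17 between genes. Of 64 elements called at E14.5, 36 (56.3%, interval 44.1% to 67.7%) were in fibers and not epithelium, and 3 (4.69%) the other way, against 40.1% and 19.7% over all elements.

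The Sfrp1 promoter itself was strong in all lists, with 86 fragments (7.17%) in epithelium against 220 (2.82%) in fibers at E14.5, and 56 (5.61%) against 18 (9.32%) at P0.5. At E14.5 it stood better in fibers and at P0.5 better in epithelium, by 4.35 and 3.71 points, both under the 10 points that counted as a difference. The site that exceeded the promoter in E14.5 fibers lay at the end of the gene in an untranslated exon, 37.3 kb from the start site, with 276 fragments (1.54%) against 45 (13.8%) in the epithelium of that stage, and 9 in either tissue of P0.5. The P0.5 ranks were 75.7% in epithelium and 34.7% in fibers. The E14.5 fiber peak was 2280 bp wide and also spanned 2 further P0.5 epithelium peaks, with 11 (58.5%) and 13 fragments (47.1%), which no P0.5 fiber peak overlapped. A downstream element between genes, 58.9 kb from the start site, had 76 fragments (8.26%) in epithelium and 141 (5.51%) in fibers at E14.5, and 37 (12.8%) in epithelium and no peak in fibers at P0.5. An upstream element, 26.1 kb before the start site, ranked better in epithelium than in fibers at E14.5, with 64 fragments (9.90%) against 51 (13.8%), and had 27 (19.6%) in epithelium and no peak in fibers at P0.5.

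Sfrp2 (chr3:83765750-83774314, plus strand), a relative of Sfrp1, had 2 promoter elements called in all 4 lists. The element at the start site had 78 fragments (8.02%) in epithelium and 80 (9.23%) in fibers of E14.5, and 41 (10.8%) and 9 (34.7%) in those of P0.5. The element about 1.9 kb upstream had 74 (8.51%), 87 (8.59%), 27 (19.6%) and 11 (21.4%) fragments. In both epithelium lists the element at the start site ranked better, and in both fiber lists the upstream element did, so that the 10.6 points by which the best Sfrp2 promoter peak differed at P0.5 compare different sites. At the start site alone, the P0.5 ranks were 10.8% in epithelium and 34.7% in fibers, and the peak was 1070 bp and 380 bp wide. Of the 20 elements of the window 5 were called in E14.5 epithelium alone, against 12.9% of all elements, with 8 to 13 fragments, and 2 in E14.5 fibers alone, against 29.3%.

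Dkk3 (chr7:112116019-112159482, minus strand), a secreted protein of the Dickkopf family that differs from its relatives in not blocking Lrp receptors directly, ranked better in fibers at both stages. Its promoter had 36 fragments (25.2 to 49.8) against 95 (76.9 to 116) in epithelium and fibers of E14.5, and 18 (10.7 to 28.5) against 14 (7.65 to 23.5) in those of P0.5, at ranks of 17.3%, 7.97%, 31.6% and 14%. The peak was 1562 bp wide in E14.5 epithelium and 2729 bp in E14.5 fibers, and 159 and 382 bp in the P0.5 lists. The strongest site of the window in 3 of the 4 lists was an element 11 kb upstream, with 85 fragments (7.27%), 155 (4.93%), 18 (31.6%) and 15 (12.6%). Further upstream, elements 20.8 and 23.9 kb from the start site were also called in all 4 lists, with 108 and 73 fragments in E14.5 fibers and 63 and 32 in E14.5 epithelium. The 3 upstream elements and the promoter all had better ranks in the fiber list of each stage.

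The Dkk3 window had the largest share of the 10 of elements called in E14.5 fibers and not E14.5 epithelium, while the covered share of the window differed more between these lists at Sfrp1. The Dkk3 window held 19 peaks in epithelium against 43 in fibers at E14.5, and 13 against 17 at P0.5, covering 4.37%, 15.3%, 1.69% and 2.33% of the window and 9.97%, 34.3%, 4.05% and 5.38% of the gene body. Of 44 elements called at E14.5, 27 were in fibers and not epithelium (61.4%, interval 46.6% to 74.3%), against 40.1% over all elements, and 1 was in epithelium and not fibers (2.27%), against 19.7%. Of the 9 elements of the 10 windows called in both fiber lists and no epithelium list, 4 were at Dkk3, 3 at Sfrp1 and 1 each at Fzd3 and Tcf7l1. The strongest of these 9, between genes 99.8 kb downstream of the Fzd3 start site, had 35 fragments (20.1%) in the E14.5 list and 9 (34.7%) in the P0.5 list. The 4 at Dkk3 had 11 to 18 fragments in the former and 6 to 8 in the latter, near the weakest calls of the P0.5 fiber list.

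**Figure D3:**
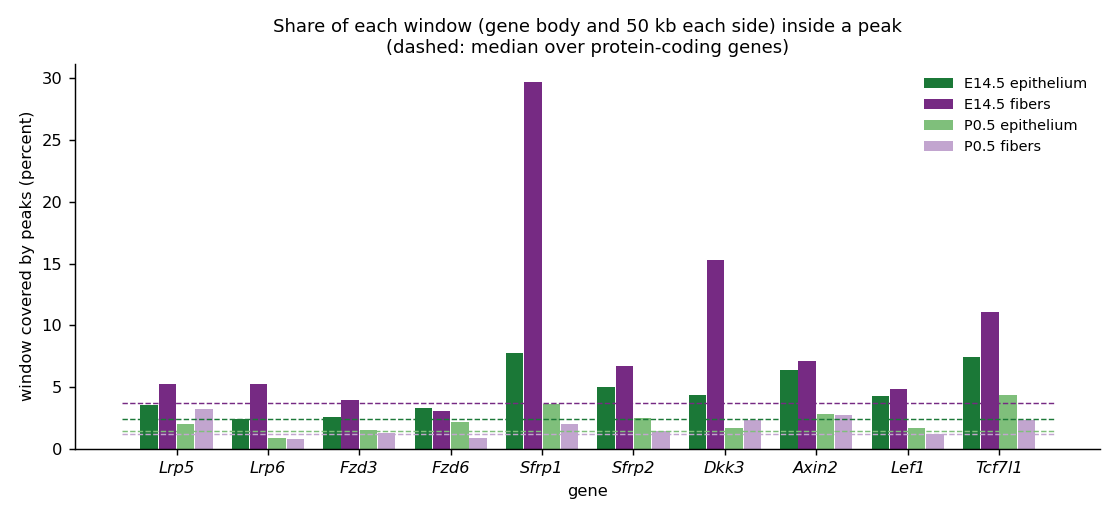
Share of each window covered by peaks (vertical axis, percent) for each gene (horizontal axis) in the 4 pooled lists, with dashed lines at the medians over all protein-coding genes. The E14.5 fiber bars of Sfrp1 (29.7%) and Dkk3 (15.3%) stand above all other bars of the plot.

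Axin2 (chr11:108917828-108950783, plus strand), the feedback inhibitor whose transcription is used as a readout of canonical signalling, had the element with the TCF/LEF match described above and a broad promoter peak. The promoter peak had 116 fragments (95.9 to 139) in epithelium and 112 (92.2 to 135) in fibers of E14.5, and 42 (30.3 to 56.8) and 17 (9.90 to 27.2) in those of P0.5. Its ranks were 4.82%, 6.87%, 10.4% and 10.3%, and its width was 2196, 2288, 1744 and 857 bp. Axin2 and Sfrp2 were the 2 genes of the 10 whose promoter ranked better in epithelium than in fibers at E14.5, by 2.05 and 0.570 points. The Axin2 window also held more peaks in E14.5 epithelium (26) than in E14.5 fibers (16), although the fiber list is the longer one. The fiber peaks were wider (median 505 bp against 204 bp) and covered slightly more of the window, 7.10% against 6.40%. Of 27 elements called at E14.5, 11 (40.7%, interval 24.5% to 59.3%) were in epithelium and not fibers, against 19.7% over all elements, and 4 (14.8%) the other way, against 40.1%. The 9 elements called in E14.5 epithelium alone (29.0% of 31, against 12.9%) were weak, with 8 to 12 fragments, and 2 lay in introns of Axin2. At P0.5, 8 of 15 elements (53.3%) were in epithelium and not fibers and 5 (33.3%) in fibers and not epithelium, against 35.2% and 39.7%. A site 29.2 kb upstream had 53, 55 and 17 fragments (ranks 11.9%, 12.9% and 33.9%) in all lists but P0.5 fibers, and one 26.1 kb upstream had 25 fragments (25.3%) in epithelium against 12 (64.1%) in fibers at E14.5, and 18 (31.6%) in epithelium alone at P0.5.

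Lef1 (chr3:131110297-131224357, plus strand), a nuclear partner of beta-catenin, had the lowest promoter count of the 10 in 3 of the 4 lists, with intervals that overlapped those of Lrp5. Its best promoter peak had 27 fragments (17.8 to 39.3) against 35 (24.4 to 48.7) in epithelium and fibers of E14.5, and 16 (9.15 to 26.0) against 7 (2.81 to 14.4) in those of P0.5. The ranks were 23.3%, 20.1%, 36.4% and 69.2%, and the peak of P0.5 fibers, with a −log10 q of 2.0, was 1 fragment above the weakest call of its list. The difference between the tissues was 3.22 points in favour of fibers at E14.5 and 32.8 points in favour of epithelium at P0.5. The latter compares different peaks, since the best one of P0.5 epithelium lay 1.735 to 2.267 kb from the 5′ end of the gene, where P0.5 fibers had no peak. At the peak that spans the 5′ end, the P0.5 counts were 11 fragments (58.5%) in epithelium and 7 (69.2%) in fibers. At the epithelium peak 0.861 to 1.164 kb from the 5′ end, which holds a fiber peak, they were 14 (42.95%) and 7 (69.2%). The strongest peak of the window in every list was at the promoter of Hadh. Inside the Lef1 body the strongest peak of E14.5 epithelium was the intronic site printed above, with 41 fragments against 27 at the promoter, and this site was called in both epithelium lists and in no fiber list.

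Of the 38 elements of the Lef1 window, 11 were called in E14.5 epithelium alone (28.9%, against 12.9% of all elements) and 10 in E14.5 fibers alone (26.3%, against 29.3%), with 7 to 18 and 8 to 22 fragments. At E14.5, 12 of 36 elements (33.3%, interval 20.2% to 49.7%) were in epithelium and not fibers, against 19.7% over all elements, and 12 of 36 the other way, against 40.1%. Within 2 kb of a curated start site in the middle of the gene, 3 elements were called in E14.5 epithelium alone, 1.10 kb before it, 0.297 kb after it and 1.41 kb after it, with 11, 18 and 11 fragments. Their ranks were 61.2%, 35.9% and 61.2%, and no other list had a peak at this start site. Between the stages, 17 of 26 elements (65.4%, interval 46.2% to 80.6%, against 49.7%) were called in E14.5 and not P0.5 epithelium. In fibers the count was also 17 of 26 (65.4%, against 62.6%). Both background shares lay within the interval.

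Tcf7l1 (chr6:72626371-72789045, minus strand), a TCF factor that mostly acts as a repressor, had the most elements of the 10, 69, in the longest window. The promoter peak had 116 fragments (95.9 to 139) in epithelium against 196 (170 to 225) in fibers at E14.5, and 62 (47.5 to 79.5) against 17 (9.90 to 27.2) at P0.5, at ranks of 4.82%, 3.51%, 4.22% and 10.3%. In P0.5 epithelium this was the highest count of the 10, with an interval that overlapped those of Sfrp1 and Fzd3. An intronic site 58.4 kb into the gene was also strong in every list, with 118 fragments (4.69%), 149 (5.18%), 52 (6.64%) and 21 (6.94%). It ranked above the promoter in the E14.5 epithelium list and the P0.5 fiber list and below it in the others. Of the 29 intronic elements of Tcf7l1 called in both E14.5 lists, 12 ranked better in epithelium and 17 in fibers. The share of either direction over all elements was not computed. Among the 12, the site 64.8 kb into the gene had 37 fragments (16.9%) in epithelium and 21 (34.2%) in fibers of E14.5, and 42 (10.4%) and 10 (26.4%) in those of P0.5. The site at 77.3 kb had 64 fragments (9.90%), 41 (17.1%) and 23 (23.7%) in all lists but P0.5 fibers, and the site at 48.3 kb had 43, 25 (28.4%) and 20 (27.9%) in the same lists. The site at 111 kb, called in all lists, had 60 (10.6%), 36 (19.5%), 26 (20.5%) and 8 (48.9%) fragments. Among those that ranked better in fibers at E14.5, the element 126 kb into the gene had 12 fragments (55.5%) in epithelium against 38 (18.5%) in fibers, and the one at 89.4 kb had 15 (43.5%) against 35 (20.1%). Those at 142 and 135 kb had 16 (40.6%) and 14 (46.8%) in epithelium against 30 (23.5%) and 25 (28.4%) in fibers.

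Across the Tcf7l1 window, 16 of 69 elements were called in all lists but P0.5 fibers, 23.2% (interval 14.8% to 34.4%) against 8.42% of all elements, with 2 of 10 at Fzd6, and 4 of the 7 elements called in both epithelium lists alone were here. Of 60 elements called at E14.5, 11 (18.3%, against 19.7%) were in epithelium and not fibers and 14 (23.3%, interval 14.4% to 35.4%, against 40.1%) in fibers and not epithelium. Of 42 called at P0.5, 23 (54.8%, interval 40.0% to 68.8%, against 35.2%) were in epithelium and not fibers, and 12 (28.6%, against 39.7%) the other way. The P0.5 epithelium list had 34 peaks in the window and the P0.5 fiber list 23, the widest gap in favour of P0.5 epithelium among the 10 genes.

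**Figure D4:**
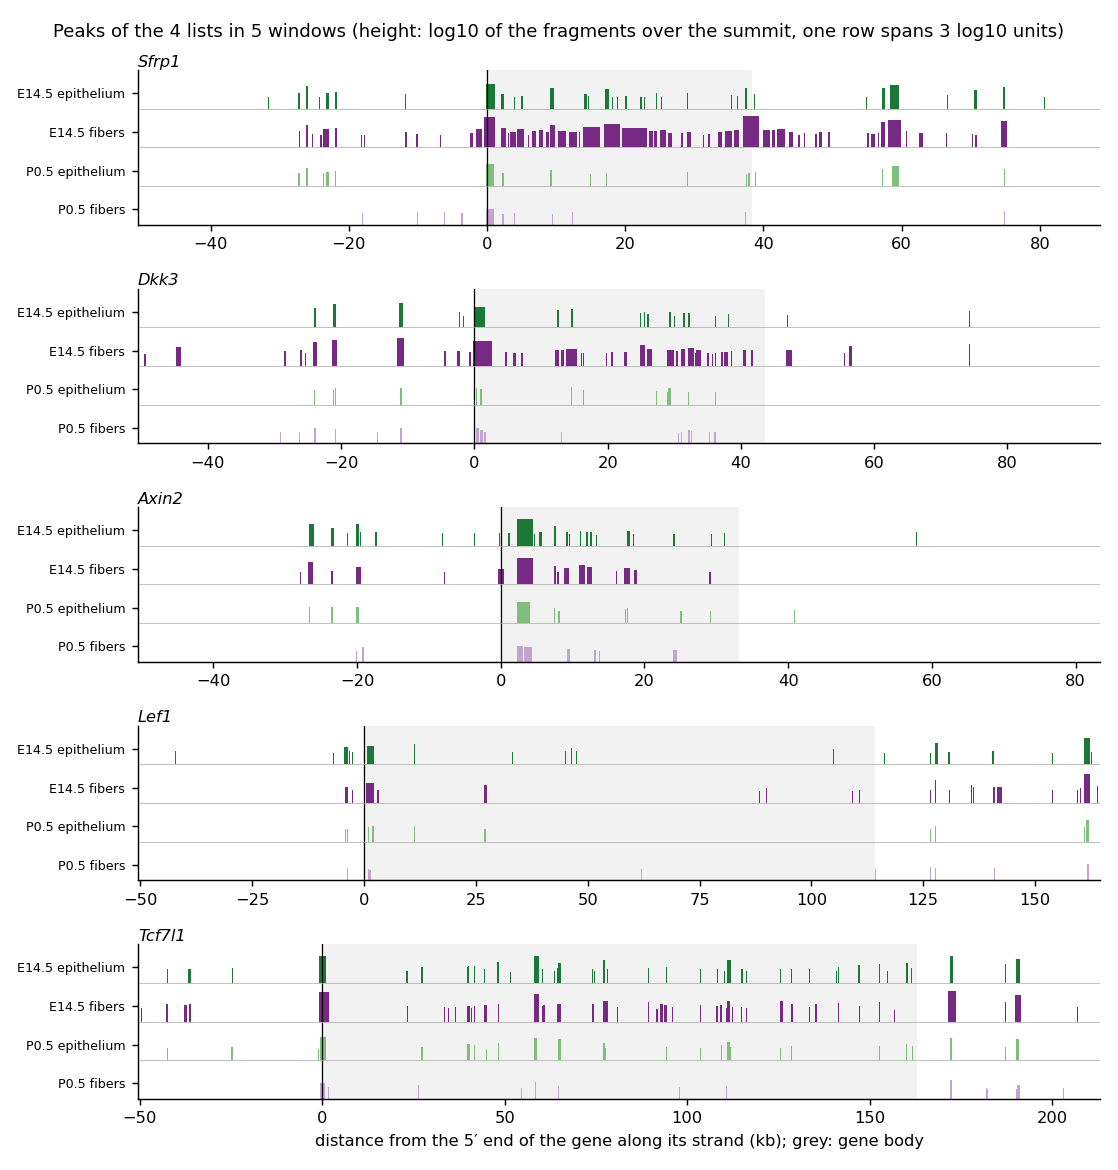
Peaks of the 4 pooled lists (rows of each panel) in the windows of Sfrp1, Dkk3, Axin2, Lef1 and Tcf7l1, drawn against the distance in kb from the 5′ end of the gene along its strand, with the gene body in grey and bar height for the log10 of the fragments over the summit. Sfrp1 has 61 peaks in E14.5 fibers that fill 64.3% of its body, Lef1 has few peaks inside its body, and the peaks of Tcf7l1 are spread along the gene.

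Summed over the 10 windows, most patterns of calls had shares near those of all elements. All lists but P0.5 fibers had called 42 of 371 elements (11.3%, interval 8.485% to 14.95%) against 8.42%, and in the 9 windows without Tcf7l1 the count was 26 of 302 (8.61%). All lists but P0.5 epithelium had called 15 (4.04%, interval 2.465% to 6.563%) against 2.42%. Both epithelium lists and no fiber list had called 7 of 371 elements, 1.89%, against 2.28% of all elements (with equal numbers of peaks 12 of 228, 5.26%, against 4.89%), and both fiber lists and no epithelium list 9, 2.43%, against 2.43%. All 4 lists had called 39, 10.5%, against 10.9%. At E14.5, 52 of 326 elements (16%) were in epithelium and not fibers, against 19.7%, and 125 (38.3%) in fibers and not epithelium, against 40.1%. At P0.5 the counts were 65 of 167 (38.9%) and 62 (37.1%), against 35.2% and 39.7%. In epithelium, 113 of 218 elements (51.8%) were called at E14.5 and not P0.5 and 17 (7.80%) at P0.5 and not E14.5, against 49.7% and 11.2%. In fibers, 210 of 312 (67.3%) and 38 (12.2%, interval 9.003% to 16.28%) were called so, against 62.6% and 17.6%. The latter background share lay outside its interval. Those of all lists but P0.5 fibers and of all lists but P0.5 epithelium lay just below theirs. No element was called in both P0.5 lists and neither E14.5 list, a pattern of 0.348% of all elements, which is too rare to be read in 371.

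**Figure D5:**
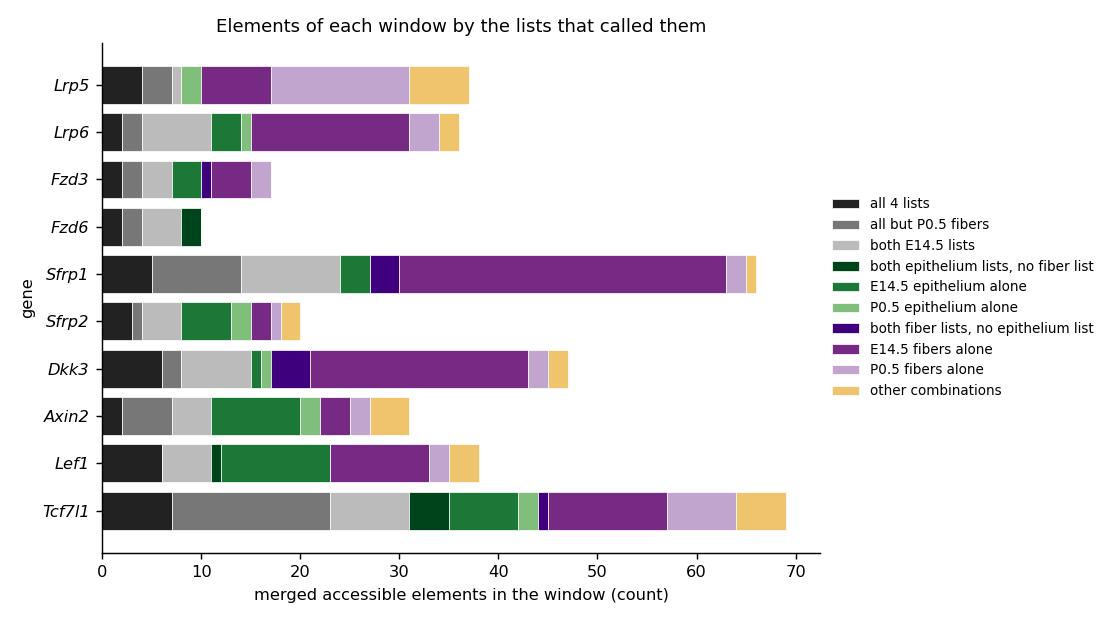
Number of merged accessible elements in each window (horizontal axis) by gene (vertical axis), divided by the lists that called them. The windows of Sfrp1 (66 elements) and Dkk3 (47) have E14.5 fibers alone as their largest class, the window of Lrp5 (37) has 14 elements of P0.5 fibers alone, and those of Axin2 (31) and Lef1 (38) have the largest numbers of E14.5 epithelium alone, 9 and 11.

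The 10 windows held a median of 18.4 elements per 100 kb (7.57 to 47.7) against 10.5 over all genes. Those of Fzd3 and Fzd6 lay below the latter. Of the 371 elements, 164 were in introns of the 10 genes, 25 at their promoters, 12 in their coding exons and 8 in their untranslated exons, while 77 were between genes, 66 in bodies and 19 at promoters of other genes. The promoter elements were the most shared: 13 of 25 (52.0%) were called in all 4 lists, against 7 of 164 intronic elements (4.27%). At promoters of other genes in these windows the count was 6 of 19 (31.6%), and over all elements of any place the share was 10.9%. The share over all promoter elements of the genome was not computed. In the introns, 56 elements (34.1%) were called in E14.5 fibers alone, 10 (6.10%) in E14.5 epithelium alone and 27 (16.5%) in all lists but P0.5 fibers, against 29.3%, 12.9% and 8.42% of all elements of any place.

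Other motifs of lens factors were searched in the same stretch of sequence, on both strands. The Tead core GGAATG was in 53 of the 371 elements (14.3%, interval 11.1% to 18.2%, against 13.7% of all), the AP-1 motif TGANTCA in 22 (5.93%, against 6.61%) and the Maf core TGCTGA, part of the longer Maf recognition element, in 77 (20.8%, against 23.2%). Each background share lay within the interval of the share in these windows. Among all 4219 elements of the genome called in both epithelium lists and no fiber list the Tead core was in 29.9%, and in these windows it was in 1 of 7 (14.3%, interval 2.57% to 51.3%), too few to set the shares apart.

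Of 76 other genes of the pathway, 67 had a promoter peak in all 4 lists and 3 in no list. The counts by list were 72, 73, 73 and 68 of 76, or 94.7%, 96.1%, 96.1% and 89.5%, against 70.3%, 71.2%, 67.0% and 64.6% of all protein-coding genes. All 15 receptors and co-receptors, 12 cytoplasmic transducers and 10 nuclear factors had one in every list, as did 17 of 20 secreted or membrane modulators and 13 of 19 ligands. The ligands Wnt8a and Wnt8b and the inhibitor Dkk4 were without one in every list. No pathway gene had a promoter peak in both epithelium lists alone or in both fiber lists alone. The strongest promoter peaks were at the same 3 genes in every list: Tle1 and Tle4, co-repressors that TCF factors recruit, at 0.0360% and 0.0860% in E14.5 epithelium, and Gsk3b, a kinase of the degradation complex, at 0.0700%. The windows of these 76 genes held 2252 elements when summed gene by gene, so that an element in overlapping windows counts in each. Of this sum, 33 (1.47%, against 2.28% of all elements) were called in both epithelium lists alone, 76 (3.38%, against 2.43%) in both fiber lists alone and 302 (13.4%, against 10.9%) in all 4.

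The dissected tissues were compared with promoter peaks of marker genes, as a check of the labels. All 5 markers of lens epithelium (Foxe3, Pax6, Cdh1, Pitx3 and Mab21l1) had a promoter peak in every list, and so did the 7 fiber markers, except 1 in P0.5 epithelium. The fiber markers ranked better in the fiber list for 7 of 7 genes at E14.5 and for 6 of the 6 called in both lists at P0.5, for example Crybb1 at 10.4% in epithelium against 0.494% in fibers at E14.5, and 75.7% against 3.82% at P0.5. The epithelium markers did not divide the tissues in this way. At E14.5, 4 of the 5 ranked better in fibers, among them Pax6 (3.73% in epithelium, 0.479% in fibers) and Pitx3 (0.819% and 0.523%), and 1, Foxe3, in epithelium (4.26% and 7.49%). At P0.5, 3 of the 5 ranked better in epithelium, while Pax6 (6.64% and 6.31%) and Pitx3 (8.70% and 1.497%) still ranked better in fibers. Over all genes with a promoter peak in both lists, the median gene also ranked slightly better in fibers. Its difference, fibers minus epithelium, was -1.14 points at E14.5 and -1.03 points at P0.5. Promoter peaks were also found at markers of other ocular cells: at 4, 4, 3 and 1 of 4 retinal genes, 3, 3, 2 and 2 of 4 endothelial genes, 4, 4, 4 and 3 of 4 mesenchymal genes, 1, 1, 0 and 0 of 4 blood genes and 0, 0, 1 and 0 of 3 corneal genes, in the order of lists used throughout. The part of other cells in the peaks of the Wnt genes was not tested.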

How the data were processed

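ATAC-seq was performed on 8 libraries of CD1 mouse lens, 2 for each of 4 groups. Per the submitters' processing notes, the authors used Trim Galore 0.4.1, Bowtie2 2.3.3.1, SAMtools 1.2, Picard 2.1.1 and MACS2 2.1 on build mm10. Per the study's methods, paired-end reads were trimmed and mapped, mitochondrial and duplicated reads were removed and peaks were called at a q value of 0.05. The authors deposited 1 peak list per group, called on the pooled libraries, with no control library named.

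The authors deposited for each peak the fold enrichment (a ratio) at the summit, and the −log10 p and −log10 q values. The deposited MACS2 score was not used. Within each list all fold values were whole multiples of 1 step (within 0.01 of a whole number for 100% of peaks), that is, fragments plus 1 over a list-wide background plus 1, and the fragments were recovered from it. Lists were matched to groups by stage and tissue, and 0 columns stayed without a group.

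The genes and gene lists were chosen with earlier results of these data known. Windows were RefSeq gene bodies (GRCm38.p6) with 50 kb on each side, and an overlap of at least 1 bp counted. Peaks of the 4 lists on 21 chromosomes were merged at 10 bp. A promoter peak lay within 2 kb of a start site of the 45756 curated transcripts, and distances are to the nearest such start site of the gene. The text names the 10 genes, the pathway genes with the 3 best promoter ranks in each list or no promoter peak, and neighbours whose start site an element touches. The genes without a promoter peak were added after their values were seen. Sequences were read from RefSeq's GRCm38 assembly. Python 3.11.15, numpy 2.4.6, pandas 2.3.3, scipy 1.17.1, pysam 0.24.0 and matplotlib 3.10.9 were used. The merging was tested on simulated data, where 100% of 2000 sites were assigned to the right lists. Other q values, equal numbers of peaks, merge distances, window sizes, promoter sizes, annotations and motif windows were tried. The ENCODE blacklist was not used here, and per-library values were not analysed here. 1 element of the Tcf7l1 window is not reported here by sequence or position.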

Additional observations from a re-analysis of the deposited data

Results flagged for a closer look

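The Lef1 promoter differed in direction between the stages. The rank of its best promoter peak in fibers minus that in epithelium was -3.22 percentage points at E14.5, where fibers stood better, and 32.8 percentage points at P0.5, where epithelium stood better. When every list was limited to equal numbers of peaks the values were 2.66 and 38.0 points, so that the sign no longer differed. The difference between the stages was not tested, since each value comes from 1 pooled list. The P0.5 fiber value rests on 7 fragments (2.81 to 14.4) in the list with the lowest depth, and the best P0.5 epithelium peak lies at another site. At the peak that spans the 5′ end of the gene the P0.5 ranks were 58.5% in epithelium and 69.2% in fibers. At the other site called in both tissues, 0.861 to 1.164 kb from the 5′ end, they were 42.95% and 69.2%.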

How the results depend on the processing

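No paired analysis was possible because the pooled lists hold no values per replicate, and leaving out a replicate could not be done for the same reason. When every list was limited to its 58592 strongest peaks, the windows held 228 elements in place of 371, 12 in place of 7 were called in both epithelium lists and no fiber list, and the median promoter rank was 13% in epithelium and 14.4% in fibers of E14.5, in place of 7.60% and 6.82%. With q values under 0.001, 5 in place of 9 elements were called in both fiber lists and no epithelium list. The Lef1 promoter then had no peak in P0.5 fibers, which left 9 genes of 10 there and put the median rank at 24.9% in place of 12.2%, with the missing gene set to 100. The rank difference of Lrp5 at P0.5, fibers minus epithelium, turned from -12.4 to 16.7 points. The TCF/LEF motif was in 5 elements (1.35%, against 1.12% of all elements) within 50 bp of the summit, in 24 (6.47%, against 4.58%) over the whole element and in 41 (11.1%, against 12.3%) when any A or T was allowed in the last 2 positions, in place of 8 (2.16%, against 2.38%). The other 46 values of the comparisons kept within 1.5 times or their spread, among them the counts under the other merge distance, window and promoter sizes and annotation. Of 59 rank differences between tissues for single genes, 23 kept their value, 30 moved with the same sign and 6 had the other sign, 5 of them on differences under 10 points. With 1 background for each list, ranks by −log10 p equal those by fold enrichment, so that this setting could not change a value. All its values are among the 23 differences and the 46 other values that kept theirs. The rest of the 23 were Fzd3 at E14.5 under both other settings and Lrp6 at P0.5 with equal numbers of peaks. The depth of the P0.5 fiber list, with a median of 8 fragments a peak, limits what can be said of weak sites there.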
